A study of Mus musculus with 18 samples.

Results

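The genes described here are 5 cyclin-dependent kinase (CDK) inhibitor genes (Cdkn1a, Cdkn1b, Cdkn2a, Cdkn2b and Cdkn2c) and 5 genes of the p53 pathway (Trp53, Mdm2, Ccng1, Bbc3 and Trp53inp1). They were chosen by symbol and make up 10 of the 53672 genes listed in the count tables. The RNA came from mouse embryonic stem cells (ESCs) of the ES-E14TG2a line with floxed endogenous genes (Hdac1/2 lox/lox), in which 4-hydroxytamoxifen (OHT) triggers deletion of Hdac1 and Hdac2. A piggyBac transgene had been stably integrated into each of 3 lines. It encoded wild-type HDAC1 in the HDAC1-WT line, and HDAC1 with a single amino acid exchanged in the HDAC1-E63R line and the HDAC1-Y48E line. The paper describes its HDAC1 rescue protein as carrying a Flag tag at the C-terminus. Each line was sequenced untreated and after 1 µM OHT, with 3 libraries in each of 6 groups, grown on gelatine with leukemia inhibitory factor. The labels give 5 days for both the OHT and the untreated cells, while the methods describe a shorter exposure followed by further culture. All groups carried the floxed alleles and a transgene, so the untreated cells held both endogenous HDAC1/2 and the rescue protein, and no group lacked a transgene. Whether a line was 1 clone or a pool is not given in the sources used here, and each transgene is represented by 1 line, so an effect of the mutation and of the line cannot be told apart.

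CDK inhibitors slow or stop the cell cycle by binding CDK complexes. The Cip/Kip proteins p21 (Cdkn1a) and p27 (Cdkn1b) act mainly on cyclin E and cyclin A complexes with CDK2, whereas the Ink4 proteins p16 (Cdkn2a), p15 (Cdkn2b) and p18 (Cdkn2c) bind CDK4 and CDK6. The Cdkn2a locus also encodes p19Arf from a separate first exon, which restrains MDM2, the ubiquitin ligase that keeps p53 (Trp53) low. Active p53 raises transcription of Cdkn1a, Mdm2, Ccng1, Bbc3 (PUMA, an activator of apoptosis) and Trp53inp1, and class I histone deacetylases, to which HDAC1 belongs, are known repressors of Cdkn1a in many cell types.

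Each library held between 9019615 and 11454638 counts on genes, and 18791 genes with enough counts, the 10 genes among them, entered 1 edgeR quasi-likelihood fit of all 18 libraries. Levels are given as CPM (counts scaled to a common library total, here with edgeR's TMM factors), and as RPKM (CPM per kilobase of exon) where genes are compared with each other. The limit for passing the test was an adjusted p of 0.01 (Benjamini-Hochberg), and a differentially expressed gene (DEG) was one that passed with a change of more than 2-fold. Replicate 3 of the untreated HDAC1-E63R cells stood apart from replicates 1 and 2 (chi-square per degree of freedom 55.9 and 62.0, against 5.16 between those 2). Where the call of any of the 10 genes changed without it, the value without it is given too. The targeted genes did not settle the labels. Hdac1 lay between 94.7 and 210.1 CPM and Hdac2 between 112 and 209 CPM in all 18 libraries, and reads of the transgene may be counted in Hdac1, which was not tested. Mean Hdac1 was 205 CPM untreated and 173 CPM with OHT in HDAC1-WT cells. It was 105 and 122 CPM in HDAC1-E63R and 101 and 111 CPM in HDAC1-Y48E cells, and every HDAC1-WT library lay above every mutant library. Mean Hdac2 went from 195 to 123 CPM in HDAC1-WT, 177 to 153 CPM in HDAC1-E63R and 151 to 144 CPM in HDAC1-Y48E cells. The ESC markers fixed for the check (Pou5f1, Sox2, Nanog and 7 others) were all measured in every group, and their values stand at the end beside those of other cell types. In such bulk RNA, fewer cells of a type and less RNA per cell cannot be told apart.

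The promoters of the genes that were DEGs after OHT in a mutant line are shown first, together with start 1 of Cdkn1a, the textbook p53 target. Of Bbc3 and Cdkn1a, which have further starts, only start 1 is shown. They come from RefSeq (GRCm38.p6, which is mm10) and run from 250 bases before to 50 after an annotated start, with 14 starts for 9 of the 10 genes. Capitals mark the GC box GGGCGG (searched on both strands) and the p53 decamer motif, which reads alike on both strands. Cdkn2a is shown with both first exons, start 1 for p19Arf and start 2 for p16. Cdkn1a start 1 lies at chr17:29090729-29091028 (plus strand), Cdkn1b at chr6:134920151-134920450 (plus), Bbc3 start 1 at chr7:16309333-16309632 (plus), Cdkn2a start 1 at chr4:89294570-89294869 (minus), Cdkn2a start 2 at chr4:89282143-89282442 (minus) and Cdkn2b at chr4:89310983-89311282 (minus).
Cdkn1a start 1: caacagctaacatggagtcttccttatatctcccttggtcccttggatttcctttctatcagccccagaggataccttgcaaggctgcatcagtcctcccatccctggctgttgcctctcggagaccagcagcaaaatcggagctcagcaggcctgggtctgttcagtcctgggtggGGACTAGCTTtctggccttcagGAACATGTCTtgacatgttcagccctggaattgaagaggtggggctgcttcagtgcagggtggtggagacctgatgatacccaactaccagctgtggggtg
Cdkn1b: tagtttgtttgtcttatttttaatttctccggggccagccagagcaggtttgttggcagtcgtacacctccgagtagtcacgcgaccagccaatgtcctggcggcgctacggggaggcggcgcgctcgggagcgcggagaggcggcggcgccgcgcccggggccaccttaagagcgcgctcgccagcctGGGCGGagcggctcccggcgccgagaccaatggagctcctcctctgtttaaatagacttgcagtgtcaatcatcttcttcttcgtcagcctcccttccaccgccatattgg
Bbc3 start 1: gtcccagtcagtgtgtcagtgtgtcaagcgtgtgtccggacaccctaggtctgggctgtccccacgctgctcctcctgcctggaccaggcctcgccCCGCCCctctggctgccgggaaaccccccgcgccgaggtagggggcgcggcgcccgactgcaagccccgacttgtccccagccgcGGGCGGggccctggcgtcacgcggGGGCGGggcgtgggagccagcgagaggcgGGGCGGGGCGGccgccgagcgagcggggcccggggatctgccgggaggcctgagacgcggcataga
Cdkn2a start 1: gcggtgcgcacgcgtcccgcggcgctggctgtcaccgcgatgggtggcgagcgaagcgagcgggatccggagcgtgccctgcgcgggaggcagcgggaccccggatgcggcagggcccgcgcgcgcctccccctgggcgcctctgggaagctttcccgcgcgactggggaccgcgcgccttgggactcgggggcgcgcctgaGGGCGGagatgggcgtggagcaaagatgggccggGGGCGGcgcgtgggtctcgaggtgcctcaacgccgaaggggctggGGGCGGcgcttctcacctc
Cdkn2a start 2: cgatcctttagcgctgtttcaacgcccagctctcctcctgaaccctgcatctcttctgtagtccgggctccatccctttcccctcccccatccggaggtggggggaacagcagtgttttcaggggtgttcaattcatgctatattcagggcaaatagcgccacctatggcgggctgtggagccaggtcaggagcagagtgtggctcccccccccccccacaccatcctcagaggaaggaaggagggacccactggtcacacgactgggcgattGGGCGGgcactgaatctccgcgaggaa
Cdkn2b: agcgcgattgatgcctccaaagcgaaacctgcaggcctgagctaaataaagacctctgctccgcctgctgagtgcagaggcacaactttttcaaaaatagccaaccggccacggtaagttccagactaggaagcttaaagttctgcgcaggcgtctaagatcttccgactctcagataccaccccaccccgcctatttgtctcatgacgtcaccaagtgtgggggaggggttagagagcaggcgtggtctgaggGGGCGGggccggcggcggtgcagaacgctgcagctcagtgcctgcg

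Of the 14 starts, 10 (7 genes) held a GC box, a motif found in 35.7% of 32841 promoters of this length. The count by start is not of separate windows, as starts 2 and 3 of Bbc3 (chr7:16310011-16310310 and chr7:16310181-16310480) overlap and share GC boxes. The p53 decamer was found in 4 starts (Cdkn1a start 1, Trp53, Mdm2 and Ccng1), against 8.36% of all promoters. A pair of decamers at most 13 bases apart was present only in Cdkn1a start 1 among the 14, and in 0.0731% of all promoters. The windows of Cdkn1b, Bbc3, Cdkn2a and Cdkn2b, the 4 DEGs, held GC boxes and no decamer. The same held for start 2 of Cdkn1a (chr17:29093519-29093818, plus strand), with 2 GC boxes and no decamer. These matches describe the letters in the windows and no binding was measured here. Overlap of a GC box with another GC box was counted, as in Bbc3.

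In untreated HDAC1-WT cells Ccng1 (cyclin G1) was highest per exon length, at 115 ± 3.1 RPKM (SD, n = 3 here and below), followed by Mdm2 at 63.1 ± 2.7, Trp53inp1 at 55.5 ± 3.9, Cdkn1a at 54.2 ± 4.7 and Bbc3 at 39.8 ± 4.1. Trp53 stood at 30.3 ± 0.43 RPKM, Cdkn1b at 24.6 ± 1.3 and Cdkn2a at 23.6 ± 3.0, and the remaining Ink4 genes were lowest, Cdkn2b at 7.27 ± 1.6 and Cdkn2c at 4.12 ± 1.1. Ccng1 had the highest mean in each of the 6 groups, and Cdkn2b and Cdkn2c the lowest 2 in each. Between these ends the order changed with the group. Bbc3 was second in both untreated mutant lines (75.4 ± 12 RPKM in HDAC1-E63R, 62.0 ± 7.1 in HDAC1-Y48E), and Cdkn1b passed from sixth in both of those groups to seventh and eighth after OHT. Cdkn2c counts were small, with 14 to 159 counts per library, as were those of Cdkn2b, with 9 to 173.

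**Figure D1:**
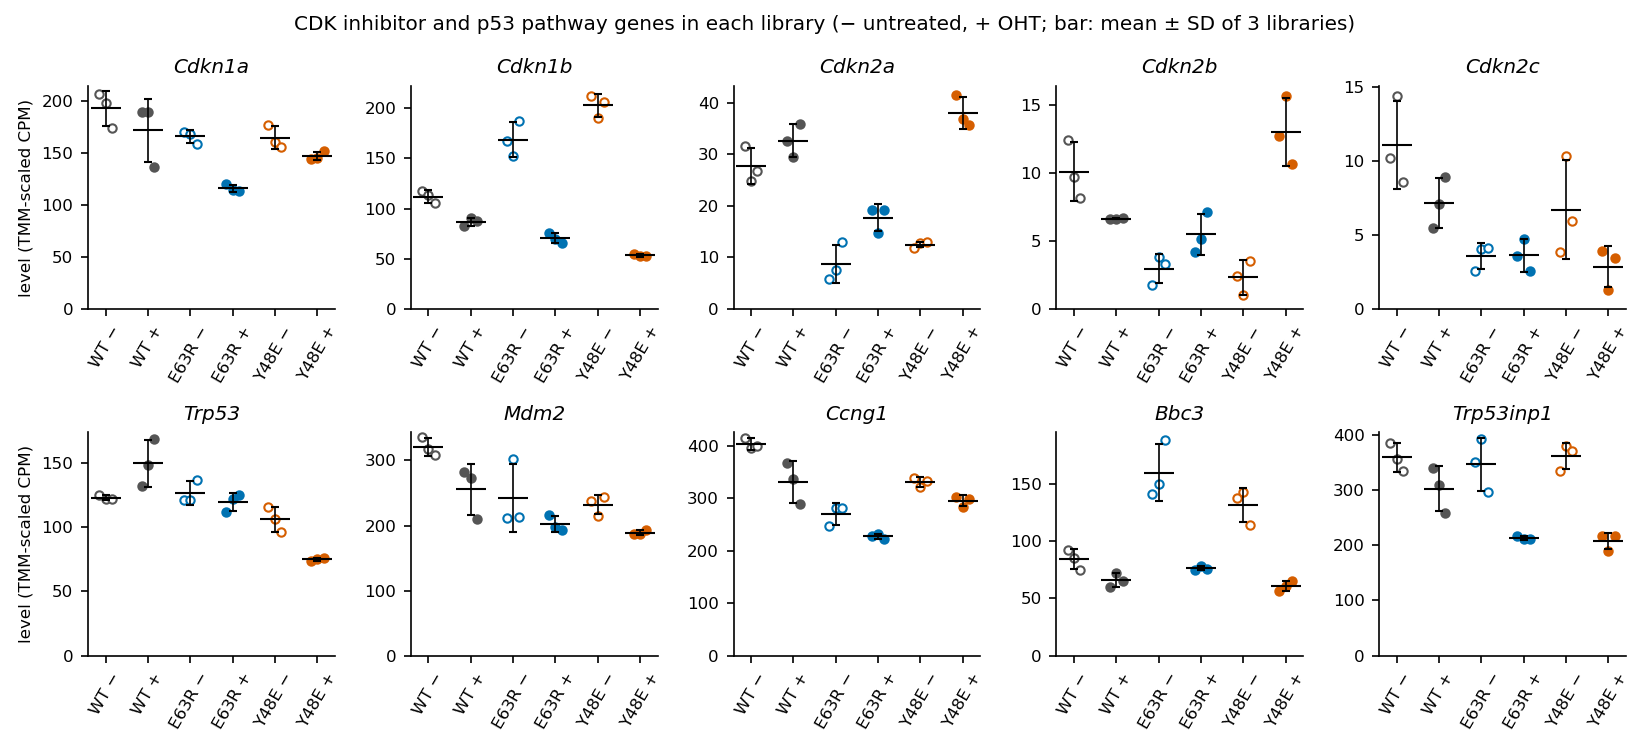
Level of each of the 10 genes (vertical axis, TMM-scaled CPM, from 0) in the 18 libraries by rescue line, untreated (open points, −) or OHT-treated (filled points, +). Black bars are the mean ± SD of 3 libraries. Cdkn1b and Bbc3 sit higher in untreated mutant cells than in any OHT-treated group, whereas Cdkn2a and Cdkn2b sit lower in untreated mutant cells than in either HDAC1-WT group.

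In the HDAC1-WT line, which shows the effect of OHT and of the exchange of endogenous HDAC1/2 for transgenic HDAC1-WT, none of the 10 genes passed the test. Of all tested genes 0.0585% passed, so a count of 0 is near the background. Of the 10 genes, 6 had an unadjusted p under 0.05 (9.86% of all tested genes did), DESeq2 also passed 0, and with any 1 of the 6 libraries left out the count was again 0. The values nevertheless lay mostly on 1 side. The fold change was below 0 for 8 of the 10 genes, and 6 of 10 genes had libraries that did not overlap between the groups (19.2% of all tested genes). The smallest p was that of Cdkn1b (log2 fold change -0.37, standard error (SE) 0.10, edgeR adjusted p = 0.137), followed by Ccng1 (-0.29, 0.09, edgeR adjusted p = 0.247), Bbc3 (-0.36, 0.12, edgeR adjusted p = 0.268) and Trp53, the only one of these above 0 (0.28, 0.10, edgeR adjusted p = 0.309). The median log2 fold change of the 10 genes was -0.31, against 0 over all tested genes. Among the OHT-treated HDAC1-WT libraries, replicate 3 was lowest for Cdkn1a, Mdm2, Ccng1 and Trp53inp1 and highest for Trp53, so part of these differences came from that library. Without it the changes of Cdkn1a and Ccng1 were the smallest of the 6 fits, -0.03 and -0.20 (log2).

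In the mutant lines more of the genes passed. In HDAC1-E63R cells 5 of 10 passed after OHT, against 14.3% of all tested genes. Cdkn2a was up (7.49% of all genes were) and Cdkn1a, Cdkn1b, Bbc3 and Trp53inp1 were down (6.82%). In HDAC1-Y48E cells 6 of 10 passed, against 30.9%. Cdkn2a and Cdkn2b were up (16.2% of all genes were) and Cdkn1b, Bbc3, Trp53 and Trp53inp1 were down (14.7%). DEGs were 3 of 10 in HDAC1-E63R (background 5.91%) and 4 of 10 in HDAC1-Y48E (16.6%). The libraries did not overlap for 7 genes in HDAC1-E63R (36.9% of all genes) and for 9 in HDAC1-Y48E (59.4%). The median log2 fold change of the 10 genes was -0.25 in HDAC1-E63R and -0.40 in HDAC1-Y48E, against 0.03 and 0.05 over all tested genes.

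**Figure D2:**
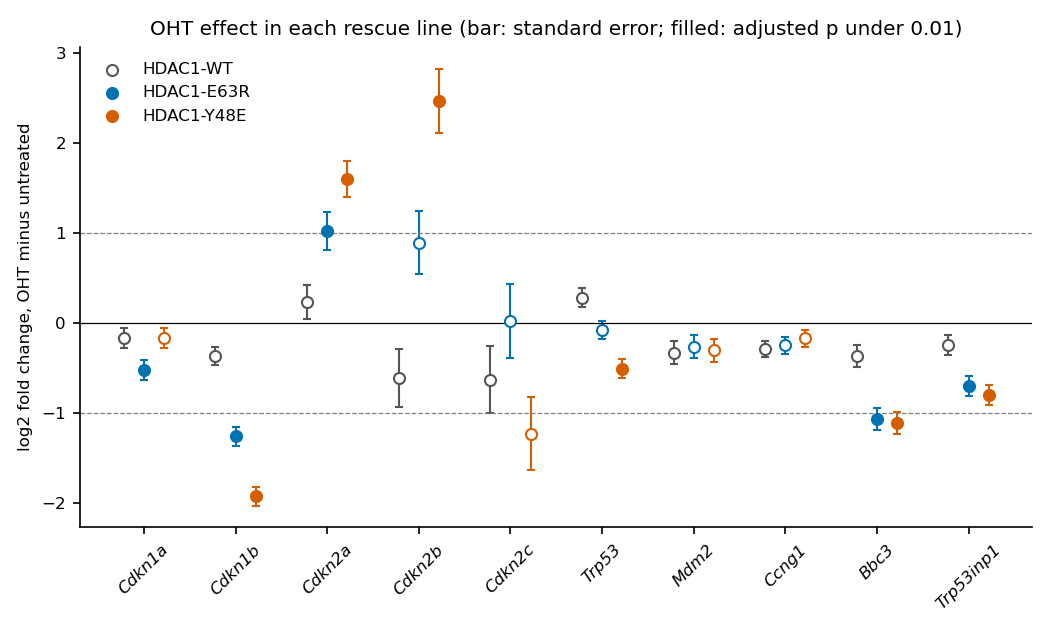
Log2 fold change after OHT (vertical axis) of the 10 genes in each rescue line, with SEs. Filled points had an edgeR adjusted p under 0.01, and dashed lines mark a 2-fold change. All points of the HDAC1-WT line are open, and filled points beyond 2-fold belong to Cdkn1b, Bbc3, Cdkn2a and Cdkn2b in the mutant lines.

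Cdkn1b (chr6:134920401-134925513, plus strand, GENCODE M21 gene on mm10, as below), the gene of the CDK2 inhibitor p27, had the smallest p of the 10 genes in both mutant lines. Its level was 117, 113 and 105 CPM in the untreated HDAC1-WT libraries and 82.3, 90.2 and 87.6 CPM after OHT. In HDAC1-E63R cells it was 167, 152 and 187 CPM untreated and 75.6, 70.2 and 65.6 CPM after OHT. In HDAC1-Y48E cells it was 212, 190.2 and 206 CPM untreated and 55.2, 52.4 and 52.6 CPM after OHT. The 6 groups followed each other without overlap between any neighbours in the order of their means, from untreated HDAC1-Y48E at the top to OHT-treated HDAC1-Y48E at the bottom, and the OHT-treated libraries lay below the untreated ones in all 3 lines. Cdkn1b fell by 1.26 (log2, as for all changes given with an SE) in HDAC1-E63R cells (SE 0.10, edgeR adjusted p = 1.58e-08) and by 1.92 in HDAC1-Y48E cells (SE 0.10, edgeR adjusted p = 4.25e-12). It remained a DEG in each of the 6 fits without 1 library in both lines. Without replicate 3 of the untreated HDAC1-E63R cells the value there was -1.18.

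Bbc3 (chr7:16308393-16318205, plus strand), whose product PUMA activates apoptosis, fell in both mutant lines, by changes that differed by -0.04 (SE 0.17, edgeR adjusted p = 0.935) between HDAC1-Y48E and HDAC1-E63R. Its levels in HDAC1-WT cells were 92.7, 85.4 and 75.2 CPM untreated and 60.3, 72.3 and 64.9 CPM with OHT. In HDAC1-E63R cells they were 142, 149.9 and 189 CPM untreated and 75.1, 78.3 and 76.1 CPM with OHT. In HDAC1-Y48E cells they were 138, 143 and 115 CPM untreated and 56.9, 60.5 and 65.7 CPM with OHT. All 6 untreated mutant libraries lay above every other library, and the 9 OHT-treated libraries lay close together, between 56.9 and 78.3 CPM. Bbc3 fell by 1.07 (log2) in HDAC1-E63R cells (SE 0.12, edgeR adjusted p = 1.85e-06) and by 1.11 in HDAC1-Y48E cells (SE 0.12, edgeR adjusted p = 2.57e-07). In HDAC1-E63R cells the change was close to the 2-fold limit and was -0.93 without replicate 3 of the untreated cells, where Bbc3 passed the test but was no DEG.

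Cdkn2a (chr4:89274471-89294653, minus strand), which encodes p16 and p19Arf, changed in the opposite direction. The counts pool both transcripts, which cannot be told apart here. In HDAC1-WT cells it had 31.6, 24.9 and 26.7 CPM untreated and 32.5, 29.5 and 35.9 CPM with OHT. In HDAC1-E63R cells the levels were 5.91, 7.56 and 12.9 CPM untreated and 19.3, 14.7 and 19.1 CPM with OHT. In HDAC1-Y48E cells they were 11.9, 12.7 and 12.9 CPM untreated and 41.4, 36.9 and 35.6 CPM with OHT. Untreated mutant libraries were thus the 6 lowest of all 18, and OHT-treated HDAC1-Y48E libraries lay at or above the range of the HDAC1-WT line while OHT-treated HDAC1-E63R libraries stayed below it. Cdkn2a rose by 1.60 (log2) in HDAC1-Y48E cells (SE 0.20, edgeR adjusted p = 1.43e-06), and was a DEG in each of 6 fits without 1 library. In HDAC1-E63R cells it rose by 1.02 (SE 0.21, edgeR adjusted p = 0.00109), just past the 2-fold limit. There it passed in all 6 such fits but was a DEG in 2 of them, those without replicate 3 of the untreated or replicate 2 of the OHT-treated cells. The log2 fold changes lay between 0.79 and 1.40, the latter without replicate 3 of the untreated cells. In a fit of the HDAC1-E63R libraries alone it did not pass (edgeR adjusted p = 0.0643).

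Cdkn2b (chr4:89306299-89311039, minus strand), the neighbour of Cdkn2a on chromosome 4 and the gene of p15, had the largest fold change of the 10 genes. Its levels were low, at 12.4, 9.68 and 8.19 CPM in untreated HDAC1-WT cells and 6.64, 6.61 and 6.70 CPM after OHT. In HDAC1-Y48E cells they were 2.42, 1.02 and 3.55 CPM untreated and 12.7, 15.7 and 10.7 CPM with OHT. In HDAC1-E63R cells they were 1.75, 3.83 and 3.31 CPM untreated and 4.22, 5.14 and 7.13 CPM with OHT. The OHT-treated libraries lay above the untreated ones in both mutant lines and below them in the HDAC1-WT line. Cdkn2b rose by 2.47 (log2) in HDAC1-Y48E cells (SE 0.36, edgeR adjusted p = 8.33e-06), between 2.12 and 2.91 with 1 library left out. In HDAC1-E63R cells the value of 0.90 had an SE of 0.35 and did not pass (edgeR adjusted p = 0.0674).

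**Figure D3:**
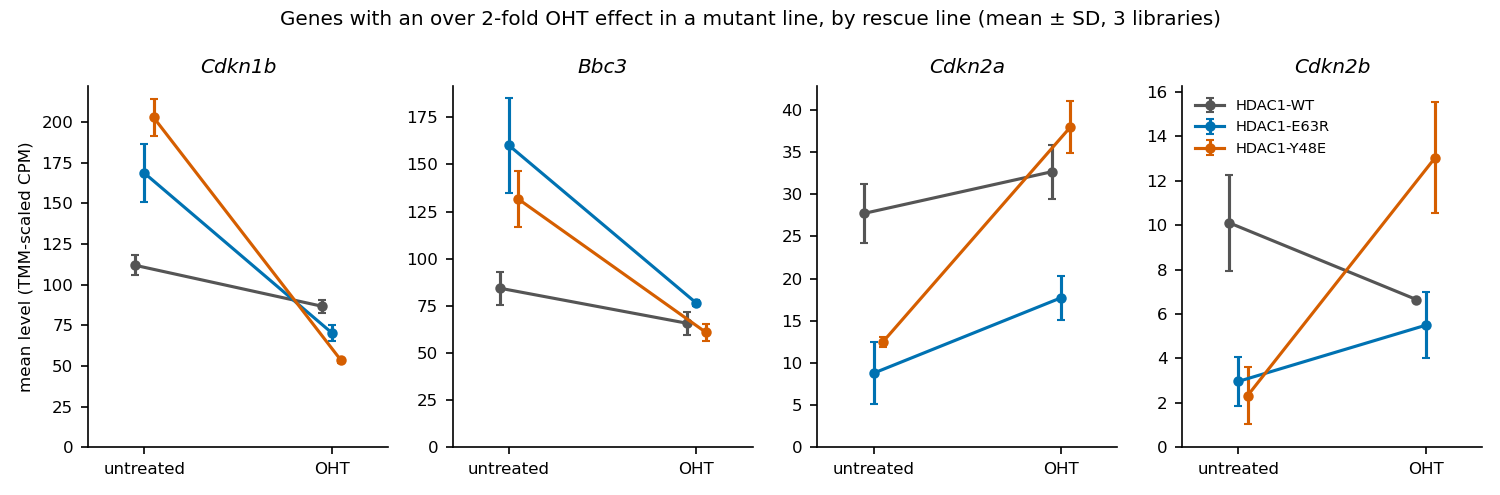
Mean level of Cdkn1b, Bbc3, Cdkn2a and Cdkn2b (vertical axis, TMM-scaled CPM, from 0) in untreated and OHT-treated cells of the 3 rescue lines, with the SD of 3 libraries. Lines join the 2 groups of a rescue line. The mutant lines start above HDAC1-WT for Cdkn1b and Bbc3 and below it for Cdkn2a and Cdkn2b.

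Trp53 (chr11:69580359-69591873, plus strand), the gene of p53 itself, changed in HDAC1-Y48E cells. It had 125, 122 and 122 CPM in untreated HDAC1-WT cells and 132, 148 and 169 CPM with OHT. In HDAC1-E63R cells it had 121, 121 and 137 CPM untreated and 112, 122 and 125 CPM with OHT. In HDAC1-Y48E cells it had 115, 106 and 96.0 CPM untreated and 73.8, 74.8 and 75.6 CPM with OHT. The OHT-treated HDAC1-Y48E libraries were the lowest of all 18, the HDAC1-E63R groups overlapped, and OHT-treated HDAC1-WT libraries lay above the untreated ones. Trp53 fell by 0.50 (log2) in HDAC1-Y48E cells (SE 0.11, edgeR adjusted p = 5.15e-04), and the value in HDAC1-E63R cells was -0.08 (edgeR adjusted p = 0.640). A processed copy, Trp53-ps, is 95% identical to the Trp53 transcript over 1170 bases, so reads may have been split or dropped between them and the level is uncertain to that degree.

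Of the other p53 targets, Trp53inp1 (chr4:11156431-11174379, plus strand), a nuclear partner of p53 that also acts in autophagy, passed in both mutant lines. Its range was 335 to 386 CPM in untreated and 259 to 340.2 CPM in OHT-treated HDAC1-WT cells, 297 to 392 and then 211 to 218 CPM in HDAC1-E63R cells, and 335 to 379 and then 190.1 to 217 CPM in HDAC1-Y48E cells. The untreated groups of the 3 lines overlapped with each other, and all 6 OHT-treated mutant libraries lay below every other library. Trp53inp1 fell by 0.70 (log2) in HDAC1-E63R cells (SE 0.11, edgeR adjusted p = 1.09e-04) and by 0.80 in HDAC1-Y48E cells (SE 0.11, edgeR adjusted p = 6.23e-06). In a fit of the HDAC1-E63R libraries alone the first of these did not pass (edgeR adjusted p = 0.0175).

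Mdm2 (chr10:117688875-117710758, minus strand), the main inhibitor of p53, and Ccng1 (chr11:40748552-40755311, minus strand), a p53-induced cyclin that recruits a phosphatase to MDM2, did not pass in any line. Mdm2 had log2 fold changes of -0.33 in HDAC1-WT, -0.26 in HDAC1-E63R and -0.30 in HDAC1-Y48E cells, each with an SE of 0.13. Ccng1 had -0.29, -0.25 and -0.16 in the same order, each with an SE of 0.09. Both genes were therefore below 0 by similar amounts in the 3 lines, including the line rescued with HDAC1-WT. In untreated HDAC1-E63R cells Mdm2 had 211, 303 and 213 CPM, and without replicate 3 its OHT value there became -0.34 and passed (edgeR adjusted p = 0.00551). In a fit of the HDAC1-Y48E libraries alone Mdm2 and Ccng1 also passed (edgeR adjusted p = 7.65e-05 and 0.00783), at -0.31 and -0.18 (log2).

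Cdkn1a (chr17:29090976-29100727, plus strand), the gene of p21 and a p53 target, changed in HDAC1-E63R cells and not past the test elsewhere. It had 206, 198 and 174 CPM in untreated HDAC1-WT cells and 189, 189 and 136 CPM with OHT. In HDAC1-E63R cells it had 170.2, 168 and 159 CPM untreated and 119.7, 114 and 113 CPM with OHT. In HDAC1-Y48E cells it had 177, 161 and 156 CPM untreated and 144, 145 and 151 CPM with OHT. The OHT-treated HDAC1-E63R libraries were the lowest of all 18, and the groups overlapped in HDAC1-WT only. Cdkn1a fell by 0.52 (log2) in HDAC1-E63R cells (SE 0.11, edgeR adjusted p = 0.00180). The call was lost without replicate 2 or without replicate 3 of the OHT-treated HDAC1-E63R cells (edgeR adjusted p of 0.0109 to 0.0114) and in a fit of that line alone (0.0273). In HDAC1-Y48E cells the value was -0.16 (SE 0.11, edgeR adjusted p = 0.250). An unprocessed transcript on the opposite strand, AC167363.2, overlaps 273 bases (7.68%) of the exons of Cdkn1a, and whether counting used the strand is not given in the sources used here.

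Cdkn2c (chr4:109660876-109667189, minus strand), the gene of p18, ranged from 1.27 to 14.4 CPM over the 18 libraries, and its groups overlapped before and after OHT in all 3 lines. Its log2 fold changes were -0.63 (SE 0.37) in HDAC1-WT, 0.02 (0.41) in HDAC1-E63R and -1.23 (0.41, edgeR adjusted p = 0.0179) in HDAC1-Y48E cells. The last value passed with no filter on low counts (edgeR adjusted p = 0.00443) and without replicate 1 of the untreated cells (0.00720). Over the 6 fits without a library it lay between -1.51 and -0.77, the smallest change being without replicate 2 of the untreated cells (edgeR adjusted p = 0.160).

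The difference in OHT effect between lines was tested as an interaction. Between HDAC1-Y48E and HDAC1-WT, 5 of the 10 genes passed, against 12.6% of all tested genes (5.84% upward and 6.77% downward). The log2 fold changes differed by 3.07 for Cdkn2b (SE 0.48, edgeR adjusted p = 6.93e-05) and by 1.36 for Cdkn2a (0.28, edgeR adjusted p = 0.00104). The difference was -1.56 for Cdkn1b (0.14, edgeR adjusted p = 5.65e-08), -0.79 for Trp53 (0.15, edgeR adjusted p = 4.66e-04) and -0.75 for Bbc3 (0.17, edgeR adjusted p = 0.00320), the last of which was lost in 5 of 12 fits without a library (replicate 3 of untreated or 2 of OHT-treated HDAC1-WT, replicate 1 or 2 of untreated or 1 of OHT-treated HDAC1-Y48E, with edgeR adjusted p of 0.0101 to 0.0127). For Trp53inp1 it was -0.55 and did not pass (edgeR adjusted p = 0.0145), though DESeq2 passed it (adjusted p = 0.00784).

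Between HDAC1-E63R and HDAC1-WT, Cdkn1b alone passed, 1 of 10 against 2.45% of all tested genes (1.01% downward), with a difference of -0.89 (SE 0.14, edgeR adjusted p = 4.07e-04). The next was Bbc3 at -0.71 (0.17, edgeR adjusted p = 0.0159), which DESeq2 passed (adjusted p = 0.00347). Without replicate 3 of the untreated HDAC1-E63R cells 4 genes passed, with Cdkn2a at 1.17, Bbc3 at -0.57 and Trp53inp1 at -0.55 joining Cdkn1b. Calls rose in general in that fit. DEGs among all tested genes went from 316 to 488, and the other p53 target genes that passed from 2 to 7. Between the 2 mutants, Cdkn1b alone passed, 1 of 10 against 1.95% (1.53% downward), with a difference of -0.67 for HDAC1-Y48E minus HDAC1-E63R (0.14, edgeR adjusted p = 0.00650). That call was lost in 9 of 12 fits without a library, with adjusted p up to 0.0287, and held without replicate 2 of untreated HDAC1-Y48E, replicate 3 of untreated HDAC1-E63R or replicate 3 of OHT-treated HDAC1-E63R. Without the second of these Trp53 also passed, at -0.49 (edgeR adjusted p = 0.00424). The other differences between the mutants did not pass. That of Bbc3 was -0.04 (SE 0.17) and that of Trp53inp1 -0.10 (0.16), while that of Cdkn2b was 1.57 with an SE of 0.50 (edgeR adjusted p = 0.0730) and that of Cdkn2a 0.58 (0.29).

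The lines already differed without OHT, when all 3 held endogenous HDAC1/2. In untreated HDAC1-E63R compared with untreated HDAC1-WT cells, 6 of 10 genes passed, against 16.9% of all tested genes (9.04% higher and 7.83% lower). Cdkn1b was higher by 0.59 and Bbc3 by 0.92 (log2), and Cdkn2a (-1.67), Cdkn2b (-1.78), Cdkn2c (-1.63) and Ccng1 (-0.58) were lower, with edgeR adjusted p between 3.37e-06 and 0.00357. In untreated HDAC1-Y48E cells 4 of 10 passed, against 12.2% (6.42% higher and 5.74% lower). There Cdkn1b was higher by 0.86 and Bbc3 by 0.64, and Cdkn2a (-1.15) and Cdkn2b (-2.11) were lower, with edgeR adjusted p between 1.59e-06 and 5.31e-04. These 4 genes are those that were DEGs in HDAC1-Y48E cells after OHT, each in the reverse direction, but the comparisons share the untreated mutant libraries, so the directions are not separate evidence. The call of Cdkn2c in HDAC1-E63R was lost without replicate 1 of untreated HDAC1-E63R or replicate 2 of untreated HDAC1-WT (edgeR adjusted p of 0.0204 and 0.0265), and in a fit of the libraries of those groups alone Cdkn1b, Cdkn2b, Cdkn2c and Ccng1 did not pass (edgeR adjusted p between 0.0137 and 0.0251). Without replicate 2 of the untreated HDAC1-E63R cells Mdm2 passed as well, at -0.60 (edgeR adjusted p = 0.000343), while without replicate 3 the 6 genes that passed were those named. In HDAC1-Y48E cells DESeq2 passed 6 of 10, adding Mdm2 at -0.46 (DESeq2 adjusted p = 0.00338) and Ccng1 at -0.29 (0.00948), as did edgeR on the compared libraries alone.

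After OHT several of these genes no longer differed from HDAC1-WT cells past the test. In OHT-treated HDAC1-Y48E compared with OHT-treated HDAC1-WT cells, the difference was 0.22 for Cdkn2a (SE 0.19, edgeR adjusted p = 0.377), -0.11 for Bbc3 (0.12, edgeR adjusted p = 0.505) and 0.97 for Cdkn2b (0.32, edgeR adjusted p = 0.0178). The 4 of 10 genes that passed, against 31.8% of all tested genes, were all lower in HDAC1-Y48E (15.2% of all genes were). The strongest evidence was for Trp53, at 74.7 ± 0.89 against 149.5 ± 18.4 CPM, a log2 difference of -1.0005 (SE 0.10, edgeR adjusted p = 8.06e-08). The others were Cdkn1b (-0.70, 0.10, edgeR adjusted p = 7.51e-06), Trp53inp1 (-0.54, 0.11, edgeR adjusted p = 4.51e-04) and Mdm2 (-0.44, 0.13, edgeR adjusted p = 0.00751), the last of which was lost in 5 of 6 fits without a library, all but that without replicate 3 of OHT-treated HDAC1-WT (edgeR adjusted p of 0.0203 to 0.0487). DESeq2 passed 6, adding Cdkn2b and Cdkn2c. In OHT-treated HDAC1-E63R cells 4 of 10 passed, against 19.3%, and all were lower than in HDAC1-WT (8.79% of all genes were). They were Cdkn2a (-0.88), Cdkn1a (-0.57), Ccng1 (-0.54) and Trp53inp1 (-0.50), with edgeR adjusted p between 1.45e-04 and 0.00159. Those of Cdkn2a and Trp53inp1 were each lost in 1 of 6 fits without a library (edgeR adjusted p = 0.0146 without replicate 2 of OHT-treated HDAC1-E63R, and 0.0185 without replicate 1 of OHT-treated HDAC1-WT). Bbc3 was 0.22 higher there (SE 0.12, edgeR adjusted p = 0.203). The difference of Cdkn1b in OHT-treated HDAC1-E63R cells was -0.30 (SE 0.10) and did not pass (edgeR adjusted p = 0.0275). It passed in a fit of the compared libraries alone (0.00754). Whether the OHT change is read against the untreated cells of the line or against OHT-treated HDAC1-WT cells thus decided the result for Cdkn2a and Bbc3 in both mutant lines. For Cdkn1b in HDAC1-E63R and Cdkn2b in HDAC1-Y48E cells the direction was the same in either reading. In the fit of all 18 libraries only the change against untreated cells passed for them. Against OHT-treated HDAC1-WT cells Cdkn2b passed with DESeq2 (adjusted p = 0.00504) and with the compared libraries alone (edgeR adjusted p = 0.00123). Ccng1 in HDAC1-E63R and Mdm2 in HDAC1-Y48E cells passed in that fit only against OHT-treated HDAC1-WT cells. Their differences from HDAC1-WT cells were similar without OHT, at -0.58 for Ccng1 (edgeR adjusted p = 7.65e-05) and -0.47 for Mdm2 (edgeR adjusted p = 0.0107).

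Across the 18 libraries the 10 genes varied together in part, given as a description over libraries that share their groups. Cdkn1b and Bbc3 had a Pearson r of log2 CPM of 0.89, Cdkn2a and Cdkn2b 0.83, and Bbc3 with Cdkn2a -0.85. The p53 targets Cdkn1a and Ccng1 had 0.85 and Cdkn1a and Mdm2 0.77, whereas Bbc3, also a p53 target, had -0.05 with Ccng1, 0.15 with Mdm2, 0.24 with Cdkn1a and 0.61 with Trp53inp1. The highest r of Trp53 with any of the other 9 was 0.47, with Cdkn2c. Outside the 10, the genes with the most similar profile to Cdkn1b were Ldhb (0.98), Ifi30 (0.97) and St13 (0.97), to Bbc3 Ewsr1 (0.97), Mkrn2 (0.96) and Creld1 (0.96), to Cdkn2a Rpl39l (0.97), Rec114 (0.96) and Dap (0.96), and to Cdkn2b Car8 (0.92), Abhd5 (0.90) and Tbpl1 (0.90).

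The wider pathway was read from lists of related genes, of which DEGs in a mutant line are named, at most 5 per list by the change in HDAC1-Y48E cells. Of the other CDK inhibitors, Cdkn1c (p57, an imprinted Cip/Kip gene) was at 56.1 ± 12 CPM untreated and 133 ± 17 CPM with OHT in HDAC1-E63R cells, and at 13.4 ± 1.0 and 92.9 ± 4.6 CPM in HDAC1-Y48E cells. On the log2 scale it rose by 1.25 (edgeR adjusted p = 2.9e-06) and 2.79 (1.6e-11), while in HDAC1-WT cells its value was -0.10. It thus changed in the reverse direction to Cdkn1b, the other Cip/Kip gene with a change beyond 2-fold. Cdkn2d (p19Ink4d) did not pass after OHT against the untreated cells of any line. It and Cdkn1c passed upward in OHT-treated HDAC1-Y48E compared with OHT-treated HDAC1-WT cells, where Cdkn2d was at 39.9 ± 4.0 against 21.3 ± 5.1 CPM.

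Of 11 cyclin and CDK genes, 1 passed in HDAC1-E63R (down) and 7 in HDAC1-Y48E cells (1 up, 6 down). These were 9.09% and 63.6% of the list, against 14.3% and 30.9% of all tested genes, and without replicate 3 of the untreated HDAC1-E63R cells 2 rose and 2 fell there. Cdk2, the kinase that p27 binds, fell by 1.21 (log2) in HDAC1-Y48E cells (130.4 ± 7.4 to 56.3 ± 4.8 CPM), and Ccnd2, a D-type cyclin, rose by 1.25 (8.33 ± 1.4 to 19.9 ± 1.7 CPM). Of 6 RB and E2F genes, 2 rose and 1 fell in HDAC1-E63R (1 rose and 2 fell without that library) and 2 rose and 3 fell in HDAC1-Y48E cells, or 50% and 83.3% of the list. E2f1, a driver of S-phase genes, fell by 1.02 in HDAC1-Y48E cells, from 91.9 ± 5.3 to 45.3 ± 2.5 CPM. In HDAC1-WT cells E2f1 was at 61.3 ± 3.5 CPM untreated and 57.5 ± 3.5 CPM with OHT. None of these genes passed in HDAC1-WT cells.

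Of 10 p53 relatives and regulators, 1 fell in HDAC1-E63R cells (2 without replicate 3 of the untreated cells), and 1 rose and 4 fell in HDAC1-Y48E cells. The shares of 10% and 50% stand against the same 14.3% and 30.9% of all tested genes. In HDAC1-Y48E cells the checkpoint kinase gene Chek1 fell by 1.49 (log2, 72.8 ± 6.3 to 25.98 ± 3.0 CPM), Trp73 by 1.33, and Mdm4, a p53 inhibitor related to Mdm2, by 1.24 (346 ± 27 to 146 ± 5.1 CPM). Trp63, like Trp73 a relative of p53, passed upward in HDAC1-Y48E cells from 0 or 1 count per untreated library to between 10 and 27 counts per OHT-treated library.

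Of 31 other p53 target genes, 8 passed in HDAC1-E63R (1 up, 7 down) and 19 in HDAC1-Y48E cells (7 up, 12 down). These were 25.8% and 61.3% of the list, against 14.3% and 30.9% of all tested genes, and the median log2 fold changes were -0.10 and -0.05, so in HDAC1-Y48E cells the changes went both ways. Gdf15, a stress cytokine gene, fell by 1.29 in HDAC1-E63R (42.7 ± 5.2 to 17.5 ± 3.2 CPM) and by 2.19 in HDAC1-Y48E cells (57.2 ± 4.9 to 12.6 ± 2.3 CPM). Pmaip1 (NOXA, an activator of apoptosis), named beyond the limit of 5 after its values were seen, fell by 1.08 in HDAC1-E63R and by 0.89 in HDAC1-Y48E cells. Polk, encoding a translesion DNA polymerase, had -0.82 and -1.14. Perp, a desmosome gene that p53 induces, rose by 1.28 and 1.02, and Cd82, a tetraspanin gene, rose by 1.91 in HDAC1-Y48E cells. Perp went from 47.9 ± 9.8 to 116 ± 10 CPM in HDAC1-E63R and from 43.2 ± 5.5 to 87.2 ± 7.0 CPM in HDAC1-Y48E cells. In HDAC1-WT cells Perp was at 109 ± 14 CPM untreated and 91.3 ± 11 CPM with OHT. Cd82 went from 2.29 ± 1.2 to 8.68 ± 2.2 CPM in HDAC1-Y48E cells, against 3.97 ± 1.2 and 6.21 ± 1.8 CPM in HDAC1-WT cells. Dram1, an autophagy gene, passed upward in HDAC1-Y48E cells from 0 to 7 counts per untreated library to 25 to 46 with OHT. In HDAC1-WT cells 0 of 31 passed, with 10 at an unadjusted p under 0.05. Without replicate 3 of the untreated HDAC1-E63R cells the count in that line was 11 of the 31 (3 up, 8 down). The counts of list genes without that library were chosen after the data were seen.

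**Figure D4:**
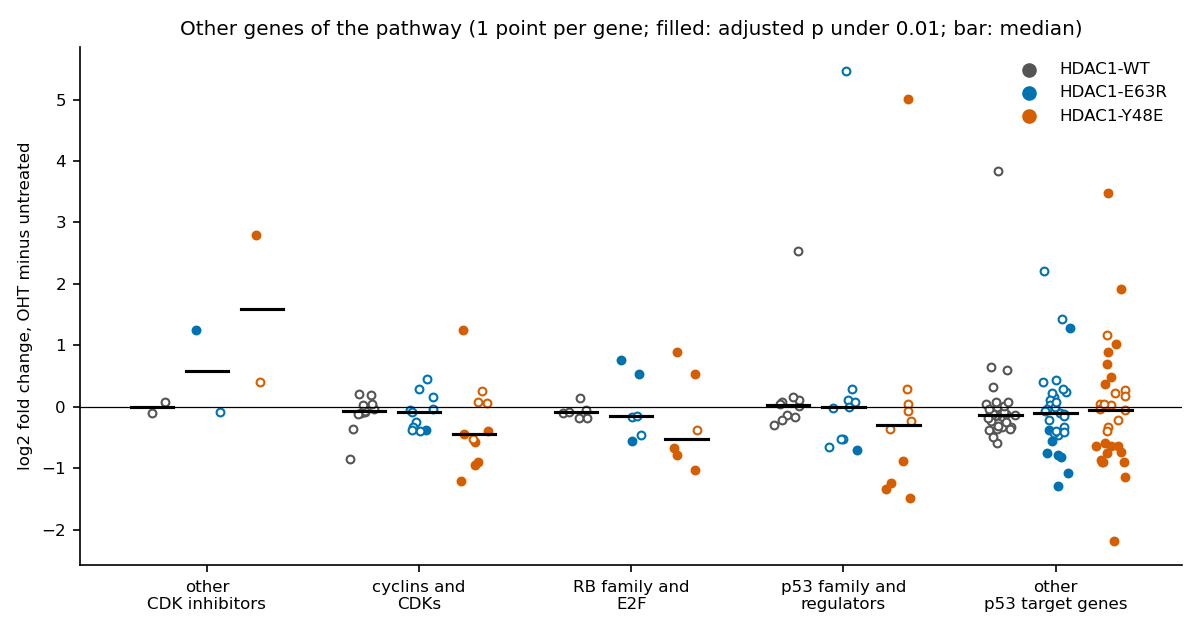
Log2 fold change after OHT (vertical axis) of genes in 5 lists of the CDK and p53 pathway, by rescue line, with 1 point per gene and the list median as a black bar. Filled points had an edgeR adjusted p under 0.01. No point of the HDAC1-WT line is filled, and among the 31 other p53 target genes filled points of HDAC1-Y48E lie on both sides of 0.

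Markers of cell types moved with the groups too. After OHT 50% of the tested ESC markers passed in HDAC1-E63R and 90% in HDAC1-Y48E cells. In the same order the shares were 66.7% and 44.4% of trophoblast, and 50% and 50% of fibroblast markers. Those of primitive endoderm markers were 14.3% and 28.6%, near the 14.3% and 30.9% of all tested genes. The summed level of 10 ESC markers ranged from 8841 to 8975 CPM in untreated and from 9167 to 9988 CPM in OHT-treated HDAC1-WT cells, from 5937 to 9103 and then 5018 to 5322 CPM in HDAC1-E63R cells, and from 6683 to 6716 and then 2796 to 2936 CPM in HDAC1-Y48E cells. After OHT 9 of the 10 fell in HDAC1-Y48E cells, Fgf4 by 3.06, Tfcp2l1 by 1.70, Esrrb by 1.64, Pou5f1 by 1.52 and Nanog by 1.29 (log2), and in HDAC1-E63R cells 4 fell and 1 rose (5 and 2 without replicate 3 of the untreated cells). By group mean, Cdkn1b, Bbc3, Trp53, Mdm2, Trp53inp1 and Cdkn2c were lowest, and Cdkn2a and Cdkn2b highest, in the OHT-treated HDAC1-Y48E cells, where these markers were lowest. Cdkn1a and Ccng1 were lowest in OHT-treated HDAC1-E63R cells instead. The OHT-treated HDAC1-Y48E libraries overlapped with an HDAC1-WT group for Bbc3, Cdkn2a and Cdkn2b, and with an HDAC1-E63R group for Mdm2, Trp53inp1 and Cdkn2c. Of 9 trophoblast markers tested, 5 rose and 1 fell in HDAC1-E63R (5 and 0 without replicate 3 of the untreated cells) and 4 rose in HDAC1-Y48E cells, with Hand1 up by 3.34 and 3.27. Their sum went from 93.0 to 104 up to 179 to 190.8 CPM in HDAC1-E63R and from 100.4 to 112 up to 148 to 158 CPM in HDAC1-Y48E cells, and was 225 to 282 CPM in HDAC1-WT cells. Of 7 primitive endoderm markers, 1 rose in HDAC1-E63R (0 without replicate 3 of the untreated cells) and 1 rose and 1 fell in HDAC1-Y48E cells, with sums between 33.2 and 114 CPM over all libraries. Of 4 fibroblast markers tested, 2 rose in each mutant line, with sums of 60.5 to 68.6 CPM in OHT-treated HDAC1-E63R and 95.02 to 105 CPM in OHT-treated HDAC1-Y48E cells, against 43.3 to 66.0 CPM in HDAC1-WT cells. No listed marker was at 0 in all libraries, and Prl3d1, Foxa2, Col3a1, Postn, Lum and Dcn had too few counts to be tested. The part of these marker changes in the results above was not tested.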

How the data were processed

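The authors sequenced paired-end libraries from total RNA, mapped them to mm10 and deposited raw counts per gene symbol. Per the submitters' notes the tools were HISAT2 (2.1.0), SAMtools (1.9) and HTSeq, and the annotation and strand setting of the counting are not given in the sources used here. The deposited counts were used as they are, 3 libraries per group. The 5 entries that name no gene (59.4% to 61.2% of a library) were left out. A floor of 3 counts was 0.248 to 0.343 CPM, which covers counting error only.

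Genes were filtered with filterByExpr by group and fitted with edgeR (4.0.16, R 4.3.3; TMM factors between 0.815 and 1.11) as 1 mean per group over 18 libraries, with Benjamini-Hochberg adjustment over 18791 genes. Standard errors came from the fold change and F statistic. The procedure was tested on simulated counts. Exon lengths, overlaps and copies came from GENCODE M21, and promoters from RefSeq. Correlations used log2 CPM with a prior count of 2.

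The study describes its libraries as biological replicates; where cultures were not separate, p-values measure only the spread between libraries. Replicate numbers did not pair the libraries. The genes, lists and tests were chosen with earlier results of these data known. Named were all 10 genes, Hdac1 and Hdac2, list genes that were DEGs in a mutant line (at most 5 per list, by the change in HDAC1-Y48E cells) and the 3 most correlated genes of each of the 10 that was a DEG after OHT. Alternatives were other scaling factors, no filter, a replicate block, only the compared libraries, DESeq2 (1.42.0) and leaving out each library.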

Additional observations from a re-analysis of the deposited data

Results flagged for a closer look

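In 7 cases the OHT effect on 1 of the 10 genes differed between lines by an interaction test (edgeR quasi-likelihood, adjusted p under 0.01). HDAC1-Y48E differed from HDAC1-WT by 3.07 for Cdkn2b, 1.36 for Cdkn2a, -1.56 for Cdkn1b, -0.79 for Trp53 and -0.75 for Bbc3 on the log2 scale. HDAC1-E63R differed from HDAC1-WT by -0.89 for Cdkn1b, and HDAC1-Y48E from HDAC1-E63R by -0.67 for Cdkn1b. The last call was lost with other scaling factors, no filter or only the compared libraries (edgeR adjusted p between 0.0106 and 0.0270), with the replicate block (0.0104) and in 9 of 12 fits without a library. In each case with HDAC1-WT the untreated lines differed as well for Cdkn1b, Bbc3, Cdkn2a and Cdkn2b, and not past the test for Trp53 (-0.21 in HDAC1-Y48E, edgeR adjusted p = 0.162).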

How the results depend on the processing

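No fold change that passed reversed its direction, while some that did not pass, such as Cdkn2c after OHT in HDAC1-E63R cells (-0.22 to 0.22), changed sign between fits. Over the 100 fold changes of the 10 genes, fits other than leaving out a library kept 466 values on the same side of the threshold, while 22 newly passed and 12 no longer passed. Leaving out 1 library kept 743, with 12 newly passed and 25 lost.

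With relative log expression factors, no filter, the replicate block or only the compared libraries, 0 of the 10 genes passed between HDAC1-Y48E and HDAC1-E63R. With no filter on low counts there were 50 DEGs in HDAC1-WT, 530 between HDAC1-E63R and HDAC1-WT (2 of the 10 genes passed) and 419 between the mutants. The replicate block gave 5 DEGs in HDAC1-WT and changed no other count of the 10 genes, and same-numbered libraries of a line had correlations of their deviations between -0.019 and 0.044, so the numbers were not used as pairs. With only the compared libraries there were 22 DEGs in HDAC1-WT, 388 in HDAC1-E63R (2 of the 10 genes passed), 144 between HDAC1-E63R and HDAC1-WT, 504 between them untreated (2 of the 10), and 7 of the 10 passed between them after OHT. DESeq2 gave 43 DEGs in HDAC1-WT, 536 between HDAC1-E63R and HDAC1-WT (2 of the 10) and 412 between the mutants. The cause was not tested.

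Without 1 library, DEGs numbered 3 to 7 in HDAC1-WT, 206 to 488 between HDAC1-E63R and HDAC1-WT (1 to 4 of the 10 genes passed) and 184 to 465 between the mutants (0 to 2). The high ends of the last 2 ranges, and the 4 and 2 genes, were without replicate 3 of untreated HDAC1-E63R, and 206 and 209 DEGs were left without replicate 1 of untreated HDAC1-WT or replicate 2 of OHT-treated HDAC1-E63R. The other counts of the 10 genes were 0 to 0 in HDAC1-WT, 4 to 6 in HDAC1-E63R, 6 to 7 in HDAC1-Y48E, 4 to 6 between HDAC1-Y48E and HDAC1-WT, 5 to 7 and 4 to 4 untreated, and 3 to 4 and 3 to 5 after OHT (HDAC1-E63R first). Depth limits Cdkn2b and Cdkn2c most, with as few as 9 and 14 counts in a library.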
